A study of Mus musculus with 5 samples.

Results

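The TNF superfamily genes described here are 10 genes taken by their symbol in the table of log2 values, out of 45706 rows. They comprise 6 ligand genes (Tnf, Tnfsf9, Tnfsf10, Tnfsf11, Tnfsf13b and Fasl) and 4 receptor genes (Tnfrsf11a, Tnfrsf11b, Fas and Tnfrsf12a). Each of the 10 had reads. RNA was sequenced from mammary cells of Balb/c mice that were sorted by fluorescence for PDGFRa, a surface receptor that marks fibroblasts, from glands 4 and 5. The nulliparous group, mice that had not borne pups, had 2 libraries. The involution group, mice 6 days after their pups were weaned, had 3 libraries. The involution mice had also been through pregnancy and lactation, so effects of these stages and of weaning cannot be told apart.

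Ligands of the TNF superfamily are made as trimers on the cell surface, and many are cut loose by proteases. Their receptors act along separate lines. Death receptors such as Fas, the TRAIL receptor and TNF receptor 1 carry a death domain that can start caspase activation, while receptors such as RANK and Fn14 lack it and recruit TRAF adaptors that activate NF-kB. In the mammary gland, RANKL made by hormone-sensing luminal cells is known to drive the growth of neighbouring epithelium in pregnancy, and death ligands are among the signals studied in the loss of milk-producing cells after weaning.

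The values were read as log2 of a scaled count plus an offset, which no source used here states. Rows that share the value 3.57 in the libraries were taken as rows without reads. A scaled read below means the unlogged value less that of a row without reads. The smallest value was 3.44, below 3.57, so a single fixed offset does not describe every value. Scaled reads of genes near 3.57, such as Fasl and Tnfsf11, are therefore uncertain. Summed scaled reads ran from about 37600000 to 43000000 per library. All 10 fibroblast markers tested had reads, with Pdgfra at 15.87 and 15.93 in nulliparous replicates 1 and 2 and at 16.09, 15.88 and 15.69 in the involution replicates 1, 2 and 3. Markers of other cells were present at lower levels. The 10 luminal markers summed to 10200 to 27900 scaled reads in the nulliparous and 5020 to 28500 in the involution libraries, the 12 macrophage markers to 2280 to 4310 and 5150 to 13900, and the 12 T and NK cell markers to 298 and 552 to 984. Each gene of these 3 lists had reads, and most of the T and NK cell sum came from Cd3e, whose locus other genes overlap. In such sorted bulk samples, fewer cells of a type and less RNA per cell cannot be told apart.

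Of the 10 genes, 5 were higher in every involution library than in either nulliparous library. These were the ligand genes Tnfsf9, Tnfsf13b and Fasl and the receptor genes Fas and Tnfrsf11b. In the other 5 the groups overlapped, and for 0 of the 10 was every involution library lower. Over the 28311 rows with reads, groups without overlap made up 17.2% in the higher and 17.9% in the lower direction. None of the 10 genes passed limma's moderated test at an adjusted p of 0.05 over all rows with reads, where 1.97% of rows passed, 1.14% upward and 0.83% downward. The adjusted p of the 10 genes ran from 0.0959 to 0.951 in limma. Of the 10, 4 had an unadjusted p under 0.05 in limma (Tnfsf9, Tnfsf13b, Tnfrsf11b and Fas), against 19.9% of all rows. With a filter that keeps rows whose mean lies at least 10 scaled reads above the offset, 8 of the 10 genes were tested among 15912, and Tnfsf9 and Fas passed, both upward. In that fit 11.3% of rows passed, 6.65% upward and 4.66% downward. The median difference of the 10 genes was 0.39 on the log2 scale and that of all rows tested was -0.004.

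**Figure D1:**
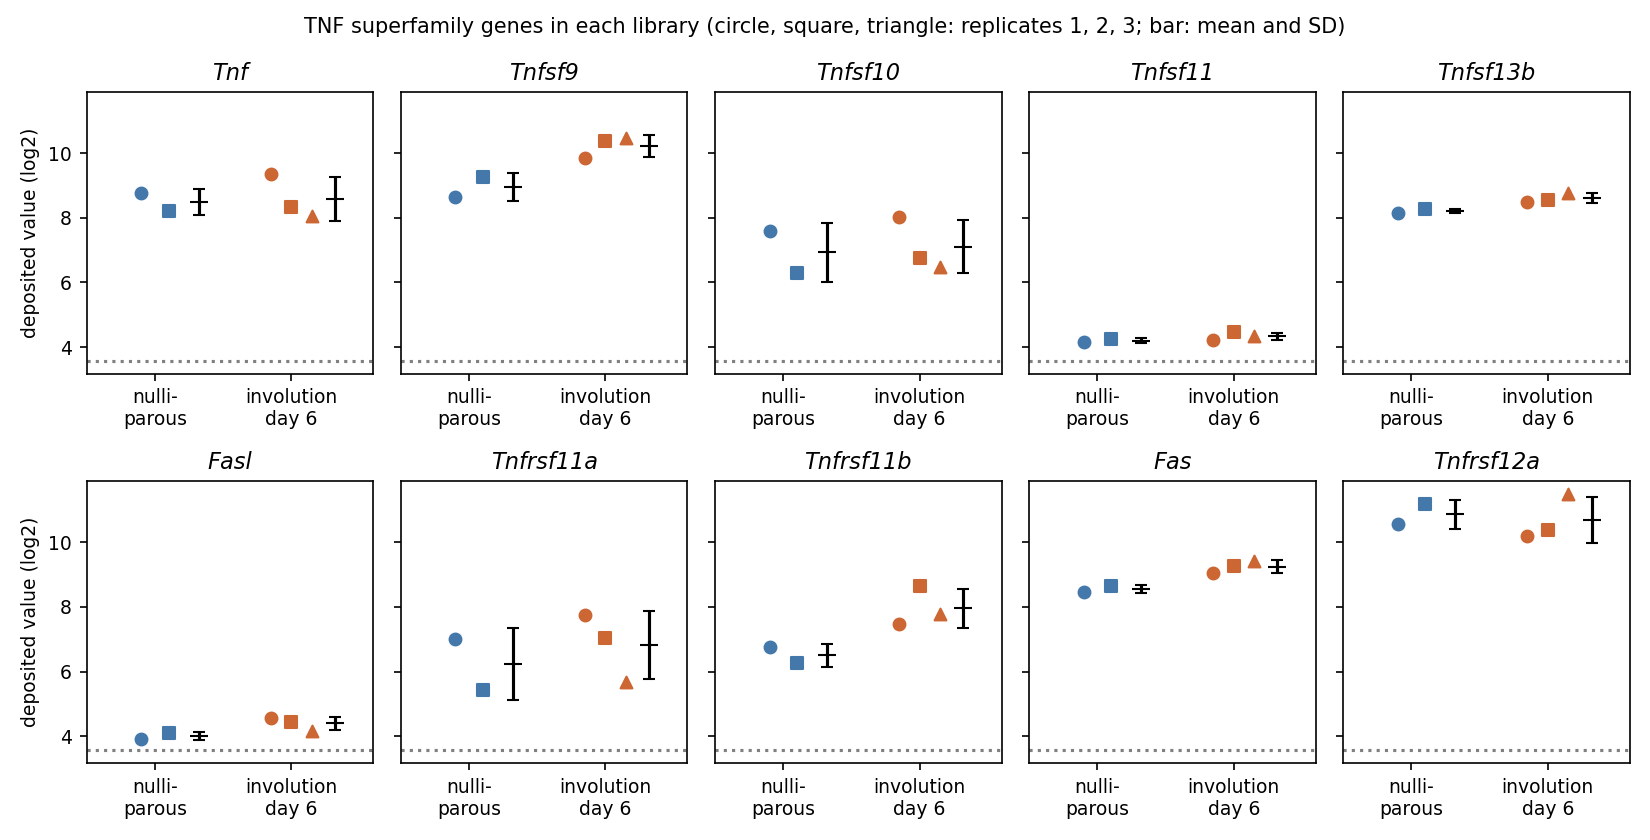
Deposited log2 value of each of the 10 genes (vertical axis) in the nulliparous (blue) and involution (orange) libraries, with the group mean and SD as a bar and the value of a row without reads, 3.57, as a dotted line. Tnfsf9, Tnfsf13b, Fasl, Tnfrsf11b and Fas show no overlap of the groups, while Tnf, Tnfsf10, Tnfrsf11a and Tnfrsf12a spread within each group, and Tnfsf11 and Fasl lie near the dotted line.

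Tnfsf9 encodes 4-1BB ligand, a costimulatory ligand for the receptor 4-1BB on activated T cells, and lies (ENSMUSG00000035678) on chromosome 17 from 57105325 to 57107757 (GRCm38). Its log2 values were 8.64 and 9.25 in nulliparous replicates 1 and 2 and 9.84, 10.38 and 10.47 in the involution replicates 1, 2 and 3. The lowest involution library stood above the highest nulliparous one. The difference was 1.28 ± 0.28 (log2 ± SE, n = 2 and 3), a 2.43-fold higher mean, with adjusted p = 0.104 in limma over all rows with reads and 0.027 under the offset filter. With that filter it passed without nulliparous replicate 2 or involution replicate 1, and not without nulliparous replicate 1 or involution replicate 2 or 3. Its receptor gene Tnfrsf9 was near the offset, at 4.89 and 4.28 in the nulliparous and 5.08, 4.92 and 4.6 in the involution libraries, and these groups overlapped. The lncRNA gene Gm11110 overlaps Tnfsf9 on the opposite strand, and the library kit does not record strand.

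Fas encodes the receptor that starts apoptosis when Fas ligand binds it, and lies (ENSMUSG00000024778) on chromosome 19 from 34290666 to 34327772. It stood at 8.47 and 8.65 in nulliparous replicates 1 and 2 and at 9.04, 9.28 and 9.43 in the involution replicates 1, 2 and 3. All 3 involution libraries lay above both nulliparous ones. The difference was 0.70 ± 0.15 (log2 ± SE, n = 2 and 3), or 1.62-fold, with adjusted p = 0.0959 in limma over all rows and 0.038 under the offset filter. With the filter it passed without involution replicate 1 and did not pass without any other single library. Fasl, the gene of its ligand (ENSMUSG00000000817), on chromosome 1 from 161780689 to 161788495, was close to the offset. It had 3.30 and 5.32 scaled reads in nulliparous replicates 1 and 2 and 11.9, 10.2 and 6.09 in the involution replicates 1, 2 and 3. The groups did not overlap, by less than 1 scaled read between nulliparous replicate 2 and involution replicate 3. The log2 difference of 0.39 ± 0.15 did not pass (adjusted p = 0.274 in limma), and it was 0.95 with the offset removed and 1 added. Fas ligand is known from activated T and NK cells. The mean log2 value over 12 markers of these cells was 4.80 and 4.76 in the nulliparous and 5.26, 5.07 and 4.85 in the involution replicates 1, 2 and 3. The markers went different ways. Of the 12, 3 were higher and 3 lower in every involution library, against 17.2% and 17.9% of all rows with reads. The 1 that passed in limma over all rows, Cd3d, fell, where 0.83% of all rows fell. Cd3d was near the offset, and under the offset filter 9 of the 12 were tested and 0 passed. The part of T and NK cells in the Fasl values was not tested.

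Promoter windows, from 250 bases before to 50 after the start, were taken from RefSeq on GRCm38.p6 for 8 of the 10 genes and searched on both strands for the kappaB consensus by name and for the interferon response core (GAAA, any 2 bases, GAAA), TTCNNNGAA (the GAS element of STAT factors), TGANTCA (AP-1) and TATAAA. Those of Fas and Tnfsf13b are shown because both genes were higher in every involution library and their windows held matches, in capitals. In all 32851 windows of that length, TGANTCA occurred in 7.81%, TTCNNNGAA in 8.3%, the interferon core in 3.44%, TATAAA in 13.6% and the kappaB consensus in 8.46%.
Fas, chr19:34290409-34290708, plus strand: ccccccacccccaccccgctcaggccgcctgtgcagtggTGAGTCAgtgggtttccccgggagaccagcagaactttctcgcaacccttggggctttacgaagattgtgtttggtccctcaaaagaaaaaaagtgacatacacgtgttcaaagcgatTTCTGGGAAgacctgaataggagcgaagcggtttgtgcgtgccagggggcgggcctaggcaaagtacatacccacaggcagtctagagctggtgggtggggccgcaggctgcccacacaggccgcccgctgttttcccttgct
Tnfsf13b, chr8:10006383-10006682, plus strand: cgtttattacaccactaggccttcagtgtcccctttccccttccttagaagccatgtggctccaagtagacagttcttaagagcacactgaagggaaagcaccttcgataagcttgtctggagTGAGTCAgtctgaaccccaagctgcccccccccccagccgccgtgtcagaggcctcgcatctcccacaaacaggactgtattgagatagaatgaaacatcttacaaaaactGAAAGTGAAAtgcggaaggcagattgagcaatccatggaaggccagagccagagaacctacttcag
In the Fas window TGANTCA matched from -211 to -205 and TTCNNNGAA from -93 to -85, counted from the start with the base before it as -1. In the Tnfsf13b window shown TGANTCA matched from -127 to -121 and the interferon core from -16 to -7. Tnfsf13b had another window, chr8:10006217-10006516, whose start lies further upstream and equals the gene start given below. Counted from that start, the same TGANTCA letters lie after it, from 40 to 46, and that window held no interferon core match. The kappaB consensus matched in none of the 9 windows of the 8 genes. The windows of Tnf and Tnfsf11 held TATAAA, from -29 to -24 and, on the opposite strand, from -32 to -27. A match describes these letters and is not evidence of a bound factor.

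Tnfsf13b encodes BAFF, a survival factor for B cells, and lies (ENSMUSG00000031497) on chromosome 8 from 10006467 to 10039072. Its log2 values were 8.15 and 8.26 in nulliparous replicates 1 and 2 and 8.48, 8.55 and 8.76 in the involution replicates 1, 2 and 3. The groups did not overlap, and each spread over less than the gap between their means. The difference of 0.39 ± 0.12 (1.31-fold) did not pass, at adjusted p = 0.182 in limma over all rows and 0.135 under the offset filter. Gm44789 overlaps Tnfsf13b on the opposite strand. The genes of its 3 receptors had few reads. Tnfrsf13c, the BAFF receptor gene, stood at 4.48 and 4.99 in the nulliparous and 4.07, 4.04 and 3.75 in the involution libraries, lower in all 3 (difference -0.78, adjusted p = 0.14 in limma). Tnfrsf13b, the TACI gene, stood at 4.49 and 4.50 and at 5.83, 5.50 and 4.61, higher in all 3 (0.82, adjusted p = 0.384 in limma). Tnfrsf17, the BCMA gene of plasma cells, lay between 3.73 and 4.45 with overlap. Of 6 plasma cell markers, 0 passed in limma over all rows, where 4 had an unadjusted p under 0.05, against 19.9% of all rows. Under the offset filter 2 of the 6 rose and 1 fell, against 6.65% and 4.66% of all rows in that fit. Their median difference was 0.48. Jchain, which joins antibody chains, had means of 6.26 and 11.13 (adjusted p = 0.00637 in limma under the offset filter), while Prdm1, a regulator of plasma cells, had means of 8.60 and 7.60 (0.0409 under that filter) and Sdc1, the most abundant of the 6, differed by -0.16 (0.515). The 6 B cell markers had a median difference of -0.53. Their part in the receptor values was not tested.

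The RANKL axis consists of the ligand gene Tnfsf11, the signalling receptor gene Tnfrsf11a (RANK) and Tnfrsf11b, which encodes osteoprotegerin, a secreted decoy that binds RANKL. Of the 3 genes, osteoprotegerin had the largest difference. Tnfrsf11b (ENSMUSG00000063727), on chromosome 15 from 54250619 to 54278484, stood at 6.76 and 6.26 in nulliparous replicates 1 and 2 and at 7.46, 8.64 and 7.78 in the involution replicates 1, 2 and 3. No libraries overlapped, and involution replicate 2 was the highest. The difference was 1.45 ± 0.42 (log2 ± SE, n = 2 and 3), or 2.73-fold, and did not pass over all rows (adjusted p = 0.167 in limma) or under the offset filter (0.0586). With the filter and without involution replicate 1 it passed.

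Tnfsf11 (ENSMUSG00000022015), on chromosome 14 from 78277445 to 78308043, was barely expressed. It had 5.86 and 7.35 scaled reads in the nulliparous and 6.91, 10.2 and 8.41 in the involution libraries. The groups overlapped and the difference was 0.14 ± 0.10 (adjusted p = 0.52 in limma), with a 95% interval from -0.14 to 0.41. Hormone-sensing luminal markers, known from the cells that make RANKL, summed to 14900 and 8360 scaled reads in the nulliparous and 5580, 3420 and 4640 in the involution replicates 1, 2 and 3. Of these 8 markers Areg fell, by 5.62 (adjusted p = 0.0451 in limma), and 7 did not pass over all rows, where 0.83% of rows fell. Under the offset filter 2 fell and 0 rose, against 4.66% and 6.65% of all rows in that fit. The median difference of the 8 was -2.2. Groups without overlap were lower in 6, against 17.9% of all rows with reads, and groups overlapped in 2. Esr1, the estrogen receptor gene and 1 of these 2, stood at 11.41 ± 0.15 (SD, n = 2) and 11.15 ± 0.21 (SD, n = 3).

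Per kb of exon, osteoprotegerin RNA exceeded RANKL RNA 13.1 and 7.0 times in nulliparous replicates 1 and 2 and 18.9, 30.3 and 19.6 times in the involution replicates 1, 2 and 3. The ratio was higher in all 3 involution libraries, and rests on the few reads of Tnfsf11 and on the offset as read here. The log2 value of Tnfsf11 less that of Tnfrsf11b was -2.62 and -2.0 in the nulliparous and -3.23, -4.18 and -3.44 in the involution libraries. The means differed by -1.31, for which an exact two-sided permutation test gave p = 0.2, the smallest that 2 against 3 libraries allow, and an adjusted p of 0.75 over 5 ligand and receptor pairs, so it cannot reach 0.05 in this design.

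Tnfrsf11a (ENSMUSG00000026321), on chromosome 1 from 105780718 to 105847981, varied more within than between groups. It stood at 7.02 and 5.45 in the nulliparous and at 7.76, 7.03 and 5.69 in the involution replicates 1, 2 and 3. The difference of 0.59 ± 0.82 had adjusted p = 0.728 in limma, and its 95% interval ran from -1.61 to 2.79. Of 13 genes known from osteoclasts, 12 had reads, 3 rose and 0 fell, while 4 rose and 1 fell under the offset filter. The shares of all rows with reads were 1.14% upward and 0.83% downward, and 6.65% and 4.66% with the filter. The median difference of the 12 was 0.57. Acp5, the tartrate-resistant acid phosphatase gene, stood at 8.79 and 8.98 in the nulliparous and 11.53, 11.52 and 11.50 in the involution libraries, and rose 6.19-fold (adjusted p = 0.017 in limma). Ctsk, the cathepsin K gene, rose 5.57-fold and Atp6v0d2, a proton pump subunit gene, by 4.50 on the log2 scale (adjusted p = 0.0351 and 0.0319 in limma). The other genes of the list did not pass over all rows. Dcstamp, needed for cell fusion, stood at 3.63 to 4.44 over the 5 libraries, Ocstamp at 3.98 to 4.57 and Oscar at 3.56 to 3.93, all near the offset, and Siglec15 had no reads. Calcr, the calcitonin receptor gene, stood at 4.90 to 5.59, Mmp9 at 5.89 to 6.89 and Tyrobp at 5.90 to 8.31. Trem2, a receptor gene of macrophages and osteoclasts, had means of 4.33 and 6.81 and Itgb3, an integrin subunit gene, of 12.58 and 12.18, and these passed under the offset filter alone, Trem2 upward and Itgb3 downward (adjusted p = 0.0184 and 0.0303 in limma). Nfatc1, the master transcription factor gene, stood at 9.45 and 9.71 in the nulliparous and 9.35, 8.99 and 9.50 in the involution libraries, with overlap (difference -0.30, adjusted p = 0.475 in limma). Fibroblasts and macrophages also express Ctsk and Acp5, and the macrophage marker sums are given above. Their part was not tested.

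**Figure D2:**
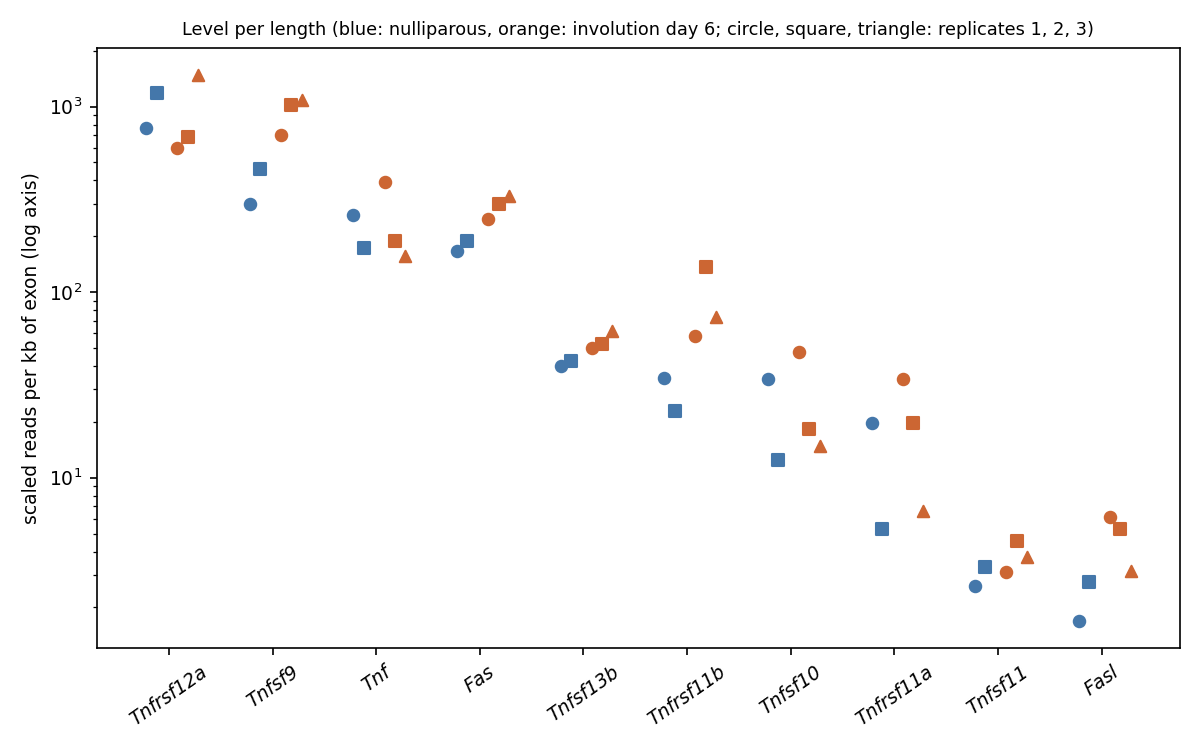
Scaled reads per kb of exon (log axis) of the 10 genes in each nulliparous (blue) and involution (orange) library, ordered by the nulliparous mean. Tnfrsf12a, Tnfsf9, Tnf and Fas lie at 156 to 1480, and Tnfsf11 and Fasl at 1.7 to 6.15.

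Per kb of exon the order of mean level in nulliparous libraries was Tnfrsf12a (978), Tnfsf9 (381), Tnf (216), Fas (177), Tnfsf13b (41.3), Tnfrsf11b (28.7), Tnfsf10 (23.3), Tnfrsf11a (12.5), Tnfsf11 (2.95) and Fasl (2.23 scaled reads per kb). In involution libraries Tnfsf9 reached 936, beside 920 for Tnfrsf12a, Fas came to 292, beside 246 for Tnf, and Tnfrsf11b to 89.8, above Tnfsf13b at 54.8. In the involution group the ranges of the libraries overlapped between Tnfsf9 and Tnfrsf12a, between Fas and Tnf, and between Tnfrsf11b (58.4 to 137) and Tnfsf13b (50.2 to 61.5). Within each involution library, though, Tnfrsf11b was above Tnfsf13b, while in each nulliparous library it was below. The order of Tnfsf9 and Tnfrsf12a, and that of Fas and Tnf, changed between involution libraries. No test compared the levels of these genes. Lengths are exon unions of GENCODE M21, and genes whose transcripts use part of the union are understated.

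Tnf and Tnfsf10 showed no difference beyond the spread of the libraries. Tnf, the gene of the inflammatory cytokine TNF (ENSMUSG00000024401), lies on chromosome 17 from 35199381 to 35202007. It stood at 8.77 and 8.20 in the nulliparous and at 9.36, 8.33 and 8.06 in the involution replicates 1, 2 and 3. The highest and the lowest value were both in the involution group, and the difference was 0.10 ± 0.46 (adjusted p = 0.951 in limma), with a 95% interval from -1.14 to 1.33. Its sign turned without nulliparous replicate 2 or involution replicate 1 and with libraries scaled to the same total. Tnfsf10 (ENSMUSG00000039304), on chromosome 3 from 27317028 to 27342427, encodes the death ligand TRAIL. It stood at 7.58 and 6.28 in the nulliparous and 8.03, 6.77 and 6.49 in the involution replicates 1, 2 and 3, a difference of 0.16 ± 0.66 (adjusted p = 0.936 in limma) with a 95% interval from -1.60 to 1.93. Intervals this wide include a 2-fold change in either direction.

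Tnf, Tnfsf10 and Tnfrsf11a shared 1 order of libraries within each group. Replicate 1 was above replicate 2 in the nulliparous group, and replicate 1 above 2 above 3 in the involution group. The second principal component of all rows past the offset filter, 25.9% of their variance, had this order too. It stood at 19.6 and -26.4 in the nulliparous and 31.4, 4.1 and -28.7 in the involution libraries, with an arbitrary sign. The order is thus not particular to these 3 genes, and the share of all rows with it was not counted. Of 12 marker lists, the means of 8 had the same order (luminal, basal, macrophage, T and NK cell, plasma cell, neutrophil, endothelial and pericyte) and those of 4 did not (fibroblast, hormone-sensing luminal, B cell and adipocyte). The fibroblast list broke the order only in the nulliparous group, at 17.08 and 17.11. Its involution means were 17.47, 17.38 and 17.26. The T and NK cell list kept the order in the nulliparous group at 4.80 and 4.76, so the split rests in part on small differences. The mean log2 value of the 12 macrophage markers was 7.93 and 7.10 in the nulliparous and 9.41, 8.76 and 8.06 in the involution libraries, that of 9 endothelial markers 9.34 and 8.48, and 9.34, 8.37 and 8.18, and that of 10 luminal markers 11.06 and 9.39, and 10.70, 9.53 and 8.35. The part of these cells in the 3 genes was not tested.

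**Figure D3:**
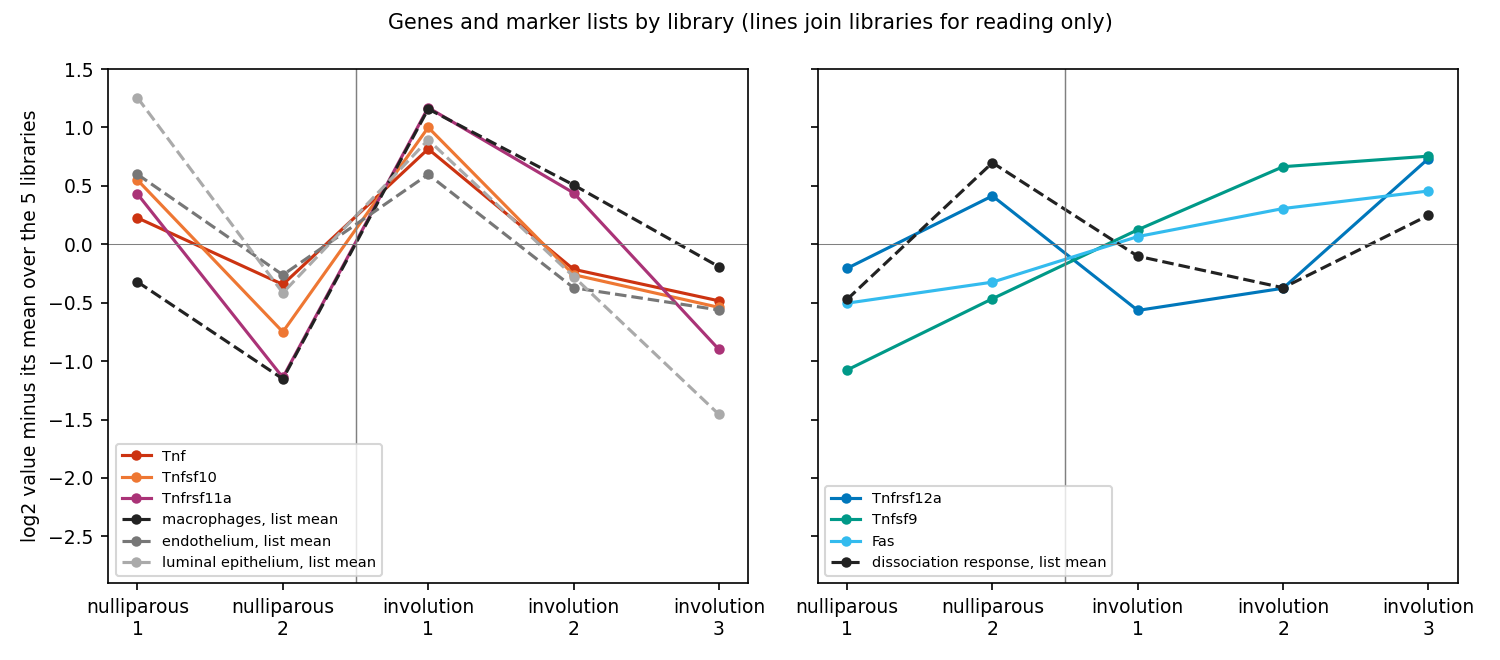
Log2 value less its mean over the 5 libraries (vertical axis) by library, for genes (solid) and the mean of marker lists (dashed). Left, Tnf, Tnfsf10 and Tnfrsf11a beside macrophage, endothelial and luminal markers, with nulliparous replicate 1 above 2 and involution replicate 1 above 2 and 3. Right, Tnfrsf12a, Tnfsf9 and Fas beside genes of the response to dissociation.

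Tnfrsf12a encodes Fn14, a small receptor for the ligand TWEAK that is induced by injury and growth factors, and lies (ENSMUSG00000023905) on chromosome 17 from 23675445 to 23677468. It stood at 10.55 and 11.17 in the nulliparous and at 10.19, 10.38 and 11.49 in the involution replicates 1, 2 and 3. Involution replicate 3 was the highest and involution replicate 1 the lowest library. The difference was -0.17 ± 0.47 (adjusted p = 0.894 in limma), with a 95% interval from -1.44 to 1.09. Its sign turned without nulliparous replicate 2 or involution replicate 1. The mean of 12 genes of the response to tissue dissociation was 14.94 and 16.11 in the nulliparous and 15.31, 15.04 and 15.66 in the involution libraries. Replicate 2 and replicate 3 were the high library of their group in both this list and Tnfrsf12a. Tnfsf9, Fas and Tnfsf13b had the same high libraries. The lowest involution library was replicate 2 in the list and replicate 1 in Tnfrsf12a, Tnfsf9, Fas and Tnfsf13b. The part of dissociation in these genes was not tested. Tnfsf12, the TWEAK gene, stood at 10.26 and 10.46 in the nulliparous and 10.43, 10.46 and 10.59 in the involution libraries, a difference of 0.14 ± 0.09 (adjusted p = 0.508 in limma). Tnfsf12 shares its locus with the readthrough gene Tnfsfm13 and the antisense gene Tnfsf13os, so its reads cannot be assigned with certainty.

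**Figure D4:**
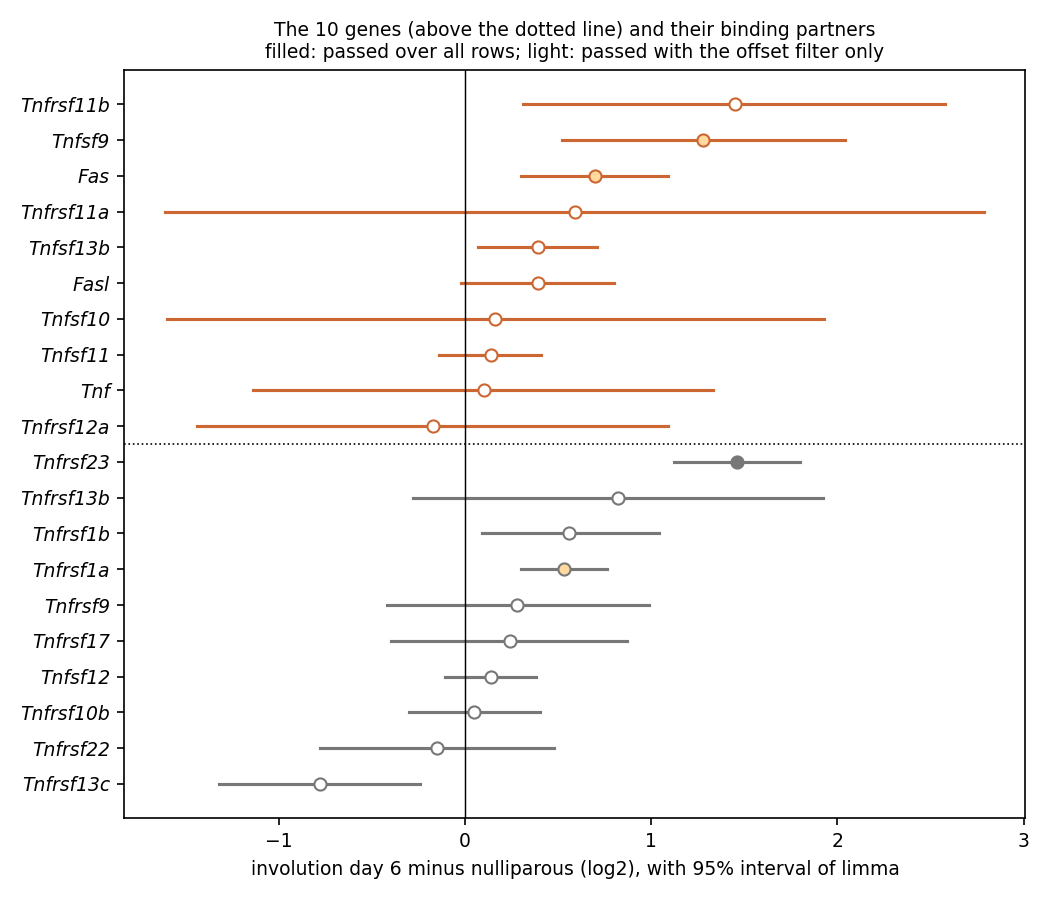
Difference of involution day 6 from nulliparous on the log2 scale with its 95% interval in limma, for the 10 genes (orange) and 10 binding partners (grey). Tnfrsf23 passed over all rows, Tnfsf9, Fas and Tnfrsf1a under the offset filter only, and the intervals of Tnf, Tnfsf10, Tnfrsf11a and Tnfrsf12a span 0 widely.

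Among 10 binding partners of the 10 proteins, Tnfrsf23 rose and 0 fell, and under the offset filter 2 rose and 0 fell. For these and the lists below, the shares of all rows with reads were 1.14% upward and 0.83% downward. With the filter they were 6.65% and 4.66%. The median difference was 0.26. Tnfrsf23, a mouse decoy receptor gene for TRAIL on chromosome 7 from 143665809 to 143685872, stood at 7.04 and 7.18 in the nulliparous and 8.44, 8.69 and 8.58 in the involution libraries. It rose by 1.46 ± 0.13, or 2.75-fold (adjusted p = 0.0359 in limma). Tnfrsf22, the neighbouring decoy gene, stood at 7.25 and 7.0 and at 7.22, 6.67 and 7.05, with overlap. Tnfrsf10b, the gene of the TRAIL receptor with a death domain, stood at 8.67 and 8.38 and at 8.46, 8.60 and 8.67 (difference 0.05, adjusted p = 0.888 in limma). Tnfrsf1a, the gene of TNF receptor 1, stood at 12.74 and 12.65 and at 13.10, 13.26 and 13.32. Its groups did not overlap, and the difference of 0.53 ± 0.09 had adjusted p = 0.0725 in limma over all rows and 0.0209 under the offset filter. Tnfrsf22, Tnfrsf23 and Tnfrsf26 are related genes in 1 cluster, where E230032D23Rik runs antisense to all 3, so reads shared among them or with that gene are uncertain.

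Of 15 other receptor genes of the family, 2 rose and 0 fell, and 5 rose and 1 fell under the offset filter, with a median difference of -0.04. Tnfrsf21, which encodes the death domain receptor DR6, lies on chromosome 17 from 43016555 to 43089189. It stood at 11.82 and 11.94 in the nulliparous and 13.06, 13.16 and 12.87 in the involution libraries and rose 2.22-fold (adjusted p = 0.0373 in limma). Tnfrsf26, a receptor gene of the same cluster as Tnfrsf23, rose 2.41-fold (adjusted p = 0.0456 in limma, and 0.0565 after quantile normalization). Those that passed with the filter only were Eda2r, Ltbr and Cd40 upward and Tnfrsf19 downward, named after their values were seen. Of 11 other ligand genes, 0 passed in limma in either fit. Over all rows 3 of them had an unadjusted p under 0.05 in limma, against 19.9% of all rows with reads. Their median difference was -0.08. Tnfsf15, with the smallest p, stood at 4.86 and 5.04 in the nulliparous and 4.45, 3.94 and 3.88 in the involution libraries (adjusted p = 0.13 in limma). Groups without overlap were upward in 2 of the 11 and downward in 4, against 17.2% and 17.9% of all rows with reads.

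Of 14 effectors of apoptosis, 2 rose and 0 fell, and 3 and 0 under the offset filter, with a median difference of 0.27. Bid, which links death receptors to mitochondria, stood at 7.70 and 7.57 in the nulliparous and 8.68, 8.78 and 8.67 in the involution libraries and rose 2.11-fold (adjusted p = 0.0361 in limma). Bid overlaps Bcl2l13 on the opposite strand. Apaf1, the scaffold of the apoptosome, rose 1.55-fold (adjusted p = 0.0459 in limma, 0.0523 with libraries scaled to the same total and 0.0521 without a trend in the prior variance). Cflar, which encodes the caspase-8 inhibitor FLIP, differed by -0.04 (adjusted p = 0.815 in limma). Of 15 receptor adaptors and kinases, Mlkl rose 1.54-fold (adjusted p = 0.0498 in limma) and 0 fell, and 2 rose and 1 fell under the offset filter, with a median difference of 0.16. Mlkl executes necroptosis, and its adjusted p was 0.0846 with libraries scaled to the same total and 0.0521 without a trend in the prior variance. Of 7 sheddases and their partners, 6 had reads and 0 passed in limma over all rows. There 1 had an unadjusted p under 0.05 in limma, against 19.9% of all rows, and 1 passed under the offset filter. Their median difference was 0.20. Mmp14, a membrane protease that can cut RANKL, stood at 15.38 and 15.61 in the nulliparous and 17.01, 16.99 and 16.65 in the involution libraries (1.39 ± 0.20, adjusted p = 0.0599 in limma, and 0.00887 under the offset filter). Adam17, which releases TNF, differed by 0.31 (adjusted p = 0.269 in limma).

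**Figure D5:**
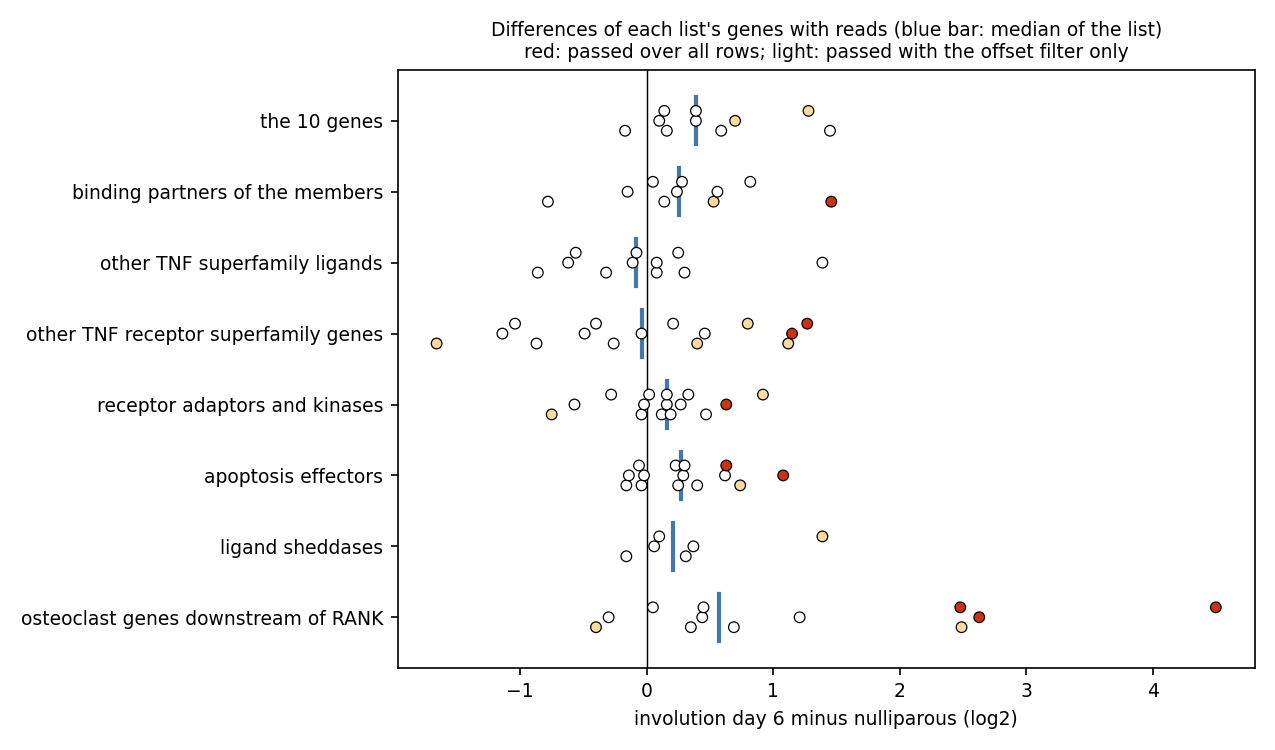
Log2 difference of each gene with reads (points) in the 10 genes and 7 lists of the pathway, with the list median as a blue bar. The 9 genes that passed over all rows (red) lie to the right of 0, and the largest, Atp6v0d2 at 4.50, is an osteoclast gene.

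Over the 7 lists, 83 of 85 genes had reads, of which 9 rose and 0 fell, against 1.14% and 0.83% of all rows with reads. Under the offset filter 17 rose and 3 fell of 70 tested, against 6.65% and 4.66% of all rows in that fit. Without any 1 library, 0 of these genes passed over all rows. Fas had the smallest p of the 10 genes, and the 3 genes of mean log2 6 or more whose values about their own mean over the 5 libraries lay closest to those of Fas were Sod2, Snx10 and Fam78b. Their root mean square differences from Fas were 0.0297, 0.0327 and 0.0368 on the log2 scale. Sod2, the mitochondrial superoxide dismutase gene, differed by 0.67 (adjusted p = 0.0766 in limma over all rows, and 0.0192 under the offset filter). It was picked for its likeness to Fas, so a difference and p near those of Fas follow from that choice.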

How the data were processed

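RNA sequencing of 5 libraries was analysed. Per the labels' protocols, library preparation followed the TruSeq RNA V2 kit. Reads were aligned with STAR 2.4.2a to GRCm38, per the submitters' processing notes. The authors deposited log2 values of adjusted counts. No source used here gives the counting tool, annotation, scaling or offset, and counts were not recovered, so counting error is judged only from the spread between libraries. The 17395 rows that share 1 value, 3.57, in the libraries were read as rows without reads, which gives an offset of 11.8.

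Groups were compared over 28311 rows with limma 3.58.1 in R 4.3.3 (two-sided moderated test, prior variance following the mean, Benjamini-Hochberg adjustment, threshold 0.05). The labels do not say whether libraries came from separate animals, so p-values measure only the spread between these samples, which may be technical. An alternative kept 15912 rows with a mean of at least 4.45. Leaving out 1 library within that filter was added after seeing the data. The 10 genes, the lists, motifs and naming rule were chosen with earlier results of these data known. The rule named the 10 genes, the called or lowest-p genes of each pathway list, the receptor and ligand pairs and the genes most like the member with the smallest p, and marker genes only where their list stands beside a result. Coordinates and exon lengths are from GENCODE M21 on GRCm38, 1-based, and promoters from RefSeq on GRCm38.p6. The test was tried on simulated data in which genes vary independently, unlike these libraries, and its outcome is not used here.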

Additional observations from a re-analysis of the deposited data

How the results depend on the processing

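Over all rows with reads, 0 of the 10 genes passed in limma in each alternative other than the offset filter, which called 2, Tnfsf9 and Fas. With that filter and 1 library left out, 0 to 3 passed. All genes higher and lower numbered 322 and 235, against 1058 and 742 with the offset filter, 502 and 386 with the offset removed and 1 added, and 215 and 501 with libraries scaled to the same total, which moved the median by -0.13 and the upward share of calls from 57.8% to 30%. With 1 library left out, with and without the offset filter, they ran from 0 to 786 and from 0 to 483. Without 1 involution library, 4489 to 5407 rows and 3 to 4 of the 10 genes had an unadjusted p under 0.05 in limma with every row with reads. Without nulliparous replicate 1, Tnfsf9, Tnfsf13b, Tnfrsf11b and Fas differed by 0.98, 0.34, 1.7 and 0.61 on the log2 scale. Without nulliparous replicate 2 these differences were 1.59, 0.44, 1.2 and 0.78. Where a nulliparous library is left out, the other is assumed to vary like the involution libraries.

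Genes of the pathway lists numbered 9 higher and 0 lower, 17 and 3 with the offset filter, 0 to 15 and 0 to 2 with 1 library left out, and 1 lower with the same total. With the replicate block 0 genes were higher and 0 lower, 0 in the pathway lists, while 5 of the 10 genes and 19.8% of rows (5618) had an unadjusted p under 0.05 in limma. Deviations from the group means correlated at 0.577 between the replicates numbered 1 and 0.0628 between those numbered 2, over genes, so the numbers are not taken to pair the samples. With the same total, Tnf was at -0.04, Tnfrsf10b at -0.09 and Tnfsf12 at -0.005. With 1 library left out, differences ran from -0.29 to 0.38 for Tnf, -0.49 to 0.82 for Tnfsf10, -0.19 to 1.38 for Tnfrsf11a, -0.57 to 0.14 for Tnfrsf12a and -0.10 to 0.19 for Tnfrsf10b. The causes were not tested. The other 6 of the 10 genes kept a positive difference in every alternative run.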

Other observations

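Ngfr, the gene of the p75 neurotrophin receptor, which belongs to the TNF receptor superfamily, stood at 11.01 and 10.73 in nulliparous replicates 1 and 2 and at 11.34, 7.14 and 10.72 in involution replicates 1, 2 and 3. It was 1 of 5 genes, found after seeing the data, that lay at least 2 on the log2 scale below the lowest of the other 4 libraries in involution replicate 2 while each of those was at 8 or more. The progesterone receptor gene Pgr stood at 7.74 in that library and between 10.30 and 10.94 in the others, and the phosphatase gene Ptpn5 at 5.06 and between 9.81 and 10.06. The same criterion found 1 gene in nulliparous replicate 1, 5 in nulliparous replicate 2 and 0 in involution replicates 1 and 3.

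Of the T cell receptor complex, Cd3e stood at 7.40 and 7.44 in the nulliparous and 8.23, 9.68 and 9.05 in the involution libraries, while Cd3d stood at 4.78 and 4.84 and at 4.08, 4.12 and 4.09, and fell (adjusted p = 0.0427 in limma). Cd3g stood at 4.77 and 4.85 and at 4.51, 4.11 and 4.10. Cd3d and Cd3g were thus near the offset, and under the offset filter 0 of the 12 T and NK cell markers passed. Most of the summed T and NK cell marker reads in these libraries came from Cd3e. Gm48719 overlaps Cd3e on the opposite strand and Gm48720 on the same strand. The library kit does not record strand, so reads counted for Cd3e cannot be assigned with certainty.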
